A study of Mus musculus with 11 samples.

Results

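The sites described here are 546 regions of the mouse genome where CDX2 was called in both wild-type libraries of jejunal villus epithelium, where no wild-type HNF4A peak overlapped, and where the histone mark H3K4me2 was present. They were found by merging CDX2 peaks that overlapped by at least 1 bp into sites holding a peak of each library, which gave 1584 sites. Of these, 900 had no overlapping wild-type HNF4A peak, and 546 of the 900 also had at least 1 nucleosome of the wild-type H3K4me2 list centred within 1 kb of the site centre. They are called marked CDX2-only sites. The sites were thus chosen by their wild-type CDX2, HNF4A and H3K4me2 calls, and those wild-type values are given as a description. The lists from knockout tissue were not used in the choice.

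The study used chromatin immunoprecipitation and sequencing (ChIP-seq) on villi released from jejunum with EDTA, from mice of a 129xC57BL6 mixed background. Villi were fixed with formaldehyde, or left unfixed and cut with micrococcal nuclease, and the labels do not say which libraries came from which. Per the labels, CDX2 was mapped in wild type (2 libraries) and in Hnf4a knockout (1 library), HNF4A in wild type and in Cdx2 knockout, and H3K4me2 in wild type, Cdx2 knockout, Hnf4a knockout and 2 double knockouts, with 1 library for each of these. Libraries were built from pooled ChIP DNA. The sources used here do not say how or in which cells the genes were deleted, nor how old the mice were. CDX2 was not mapped in Cdx2 knockout, nor HNF4A in Hnf4a knockout, so the knockout labels could not be checked on their own targets. The labels of both double-knockout libraries contradict themselves on the other deleted gene, while all of them name Cdx2 as deleted, so these libraries are called by their titles, Cdx2-Cdx1 and Cdx2-Hnf4a. The labels also give the library titled Cdx2-Hnf4a an H3K4me2 antibody lot that differs from that of the other 4. Whether the wild-type CDX2 libraries came from different animals is not stated. With 1 library for each knockout, no p-value between conditions was computed. All intervals are 95% intervals for counting error, over sites or nucleosomes of single libraries, and nucleosomes of 1 site are not independent of each other.

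CDX2 is a homeodomain transcription factor of the caudal family that gives the intestinal epithelium its identity and remains active in the adult villus. HNF4A is a nuclear receptor that binds DNA at many genes of absorptive enterocytes, and the binding of both factors to the same regulatory regions is known in this tissue. H3K4me2 is dimethylation of lysine 4 on histone H3, a mark of nucleosomes at active or primed enhancers and promoters. At an active enhancer, marked nucleosomes typically flank the stretch of DNA that transcription factors occupy.

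The marked CDX2-only sites lay on 20 chromosomes, from 43 sites on chromosome 2 to 3 on chromosome X. Only 7 pairs of neighbouring sites were less than 10 kb apart. Their median width was 639.5 bp (range 241 to 1657). The peak score of the deposited lists had a median of 117.55 in wild-type library 1 (50.21 to 933.21) and of 72.27 in library 2 (50.02 to 614.22), and 424 of the 546 sites scored higher in library 1. The mean of both scores, used below to rank sites, had a median of 98.6 with quartiles of 73.7 and 141.9. Shared sites, where CDX2 and HNF4A peaks overlapped and which met the same H3K4me2 rule (653 sites), had a median mean score of 110.2 and a median width of 765 bp. The 354 CDX2-only sites that failed the H3K4me2 rule had medians of 78.3 and 508.5 bp. The marked CDX2-only sites thus lay between the other sets in both CDX2 score and width.

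The amount of wild-type H3K4me2 varied widely among the 546 sites. A single nucleosome was listed at 125 sites, 2 at 124 sites and 3 at 86 sites, while 211 sites held 4 or more, with 10 as the highest number. The nearest nucleosome was centred a median of 102.5 bp from the site centre, and at 395 sites it was within 150 bp. The sites just inside the 1 kb limit were chr16:55753381-55753775, chr8:49768807-49769141 and chr13:6202371-6202899, with nearest nucleosomes at 988.5, 977.5 and 936.5 bp. The sites just outside it were chr6:37521983-37522603, chr5:91707538-91708102 and chr3:30690446-30690810, at 1033.5, 1046.5 and 1073.5 bp. Of the 354 unmarked sites, 48 had their nearest nucleosome between 1 and 2 kb away.

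The absence of HNF4A refers to overlap only. The nearest wild-type HNF4A peak lay a median of 10767.5 bp from the edge of a marked CDX2-only site. It was within 100 bp at 7 sites, within 1 kb at 64 and within 5 kb at 186. At 207 sites it was more than 20 kb away. A large share of the sites therefore had HNF4A nearby without overlap, and a comparable number had none over a wide stretch.

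Whether CDX2 occupied these sites without HNF4A was asked in Hnf4a knockout villi. A CDX2 peak was present there at 213 of 546 marked CDX2-only sites, or 39.0% (34.9 to 43.2). Over all 1584 CDX2 sites the share was 39.2%, so these sites stood at the background. At marked shared sites, which had HNF4A in wild type, it was 41.2% (269 of 653), and at unmarked CDX2-only sites 35.0% (124 of 354). The difference from shared sites was -2.18 percentage points (-7.71 to 3.39), and that from unmarked sites was 3.98 points (-2.50 to 10.3). Both intervals include 0. The interval against shared sites leaves room for a moderate difference in either direction.

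The wild-type CDX2 score separated the sites that were called again from the rest. In the lowest quartile of the mean score, 13.9% of marked CDX2-only sites had a CDX2 peak in Hnf4a knockout, followed by 28.7%, 43.4% and 70.1% (61.7 to 77.6) in the highest quartile. Sites with a knockout peak had a median wild-type score of 126.8, and those without one had 85.7. Within the same score limits, shared sites gave 16.7%, 20.3%, 40.6% and 72.5%, and unmarked sites gave 16.3%, 31.9%, 48.5% and 82.2%. For the marked CDX2-only sites, each step between neighbouring quartiles was larger than their difference from either other set within a quartile. The knockout peaks themselves scored a median of 76.3 (50.3 to 536.7). A missing call is not an absence of binding: the Hnf4a knockout CDX2 list was short, with 5768 peaks against 12121 and 7441 in wild type. Sites taken from library 1 alone were called again at 9.35% and those from library 2 alone at 22.0%, against 55.1% where both libraries scored 70 or more.

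**Figure D1:**
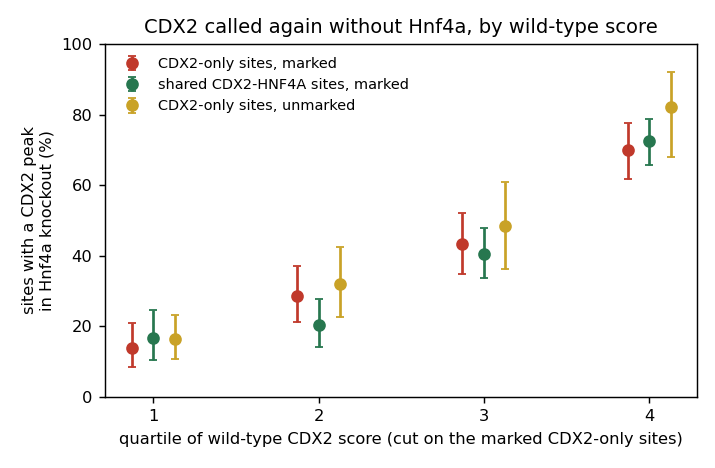
Share of sites with a CDX2 peak in Hnf4a knockout (y axis, percent, bars are exact 95% intervals) by quartile of the wild-type CDX2 score of the marked CDX2-only sites (x axis), for 3 sets of CDX2 sites. The marked CDX2-only sites go from 13.9% in the lowest quartile to 70.1% in the highest, and the other sets follow the same order.

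The highest wild-type scores belonged to chr12:16758955-16759834 (933.21 in library 1, 429.92 in library 2) and chr9:121456252-121457194 (637.65 and 614.22). Both had a CDX2 peak in Hnf4a knockout, of score 318.11 and 536.67. The next in rank, chr8:27766099-27767755, chr6:22208487-22209221 and chr6:31114558-31115425, were called again with scores of 141.91, 185.98 and 161.56. At chr6:22208487-22209221 the wild-type libraries themselves differed widely, with 708.91 and 108.19. Some sites scored higher in the knockout than in 1 wild-type library. The site chr9:44689189-44689999 had 189.41, 476.69 and 414.74 in library 1, library 2 and Hnf4a knockout. At chr19:24707500-24708017 the values were 242.21, 413.6 and 392.44, and at chr17:24591773-24592524 they were 196.64, 195.29 and 283.55. These sites were named for a high knockout score, so it is only a description that their knockout scores were within or above the range of the wild-type pair. The other sites so named, chr12:16758955-16759834 and chr9:121456252-121457194, scored lower in the knockout than in both wild-type libraries. As a caution, scores move with the depth of a library, which is unknown here.

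HNF4A was seldom called at these sites in Cdx2 knockout, in a list of 9676 peaks against 22376 in wild type. That list called HNF4A again at 36.8% of marked HNF4A peaks without any CDX2 peak and at 35.5% of marked shared sites. A missing call there is thus not an absence of binding. An HNF4A peak was present at 11 of 546 marked CDX2-only sites, or 2.01% (1.01 to 3.58), and over all 900 CDX2-only sites the share was 1.22%. None of the 354 unmarked sites had one, with an exact interval of 0 to 1.04%, and 3 counts, taken as the limit for a count of 0, would be 0.847%. The difference was 2.01 percentage points (0.623 to 3.57), an interval that excludes 0. Unmarked sites also lay farther from wild-type HNF4A peaks, at a median of 50669.5 bp against 10767.5 bp for marked sites. They were narrower too, with a median of 508.5 bp against 639.5 bp. Whether distance or width accounts for the difference was not tested. With peaks within 500 bp of the site edges also counted, 22 marked sites (4.03%) and 1 unmarked site qualified. The 11 peaks scored between 54.3 and 223.7, with a median of 72.9, and every one of these sites held between 1 and 9 H3K4me2 nucleosomes in Cdx2 knockout. Of the 11 sites, 3 had a wild-type HNF4A peak within 1 kb and 7 had none within 5 kb.

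The highest of these HNF4A scores, 223.66, was at chr10:17241743-17242136, where a wild-type HNF4A peak lay 32 bp from the CDX2 site. The site chr5:77270701-77271238 followed with 105.34, and there the nearest wild-type HNF4A peak was 19090 bp away. At chr4:76070522-76071379 the score was 98.37 with wild-type HNF4A 10748 bp away, at chr13:69701851-69703295 it was 96.07 with 233 bp, and at chr4:86301978-86302548 it was 86.59 with 13178 bp. The sites on chromosomes 10 and 13 thus had HNF4A next to the CDX2 site in wild type, and the other 3 did not.

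H3K4me2 at the marked CDX2-only sites was lower in the Cdx2 knockout list than in the Hnf4a knockout list. Nucleosomes were counted within 1 kb of the site centre. Because the lists did not share a threshold, only nucleosomes with a score of 52 or more were counted in each. The mean number per site was 3.19 ± 2.04 in wild type (SD over 546 sites), 2.32 ± 2.29 in Cdx2 knockout and 3.40 ± 2.04 in Hnf4a knockout. It was 2.72 ± 2.33 in the library titled Cdx2-Cdx1 and 2.21 ± 2.36 in the library titled Cdx2-Hnf4a. Wild type and Hnf4a knockout had a median of 3, and each of the 3 lists without Cdx2 had a median of 2. At the other end, 81 sites held 6 or more nucleosomes in wild type, 54 in Cdx2 knockout and 87 in Hnf4a knockout.

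The same contrast appeared in the number of sites with no nucleosome at all. There were 160 in Cdx2 knockout, or 29.3% (25.5 to 33.3), beside 10.6% over all 17774 CDX2 sites and HNF4A peaks that met the same wild-type rule. In Hnf4a knockout there were 20, or 3.66% (2.25 to 5.60), beside 4.07% over all. The library titled Cdx2-Cdx1 had 122, or 22.3% (18.9 to 26.1), beside 10.2%, and the library titled Cdx2-Hnf4a had 198, or 36.3% (32.2 to 40.5), beside 20.9%. In the 3 lists without Cdx2 the share at these sites was above the background, and in the Hnf4a knockout list it was at the background. In wild type, 4 sites held only nucleosomes below the score of 52.

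**Figure D2:**
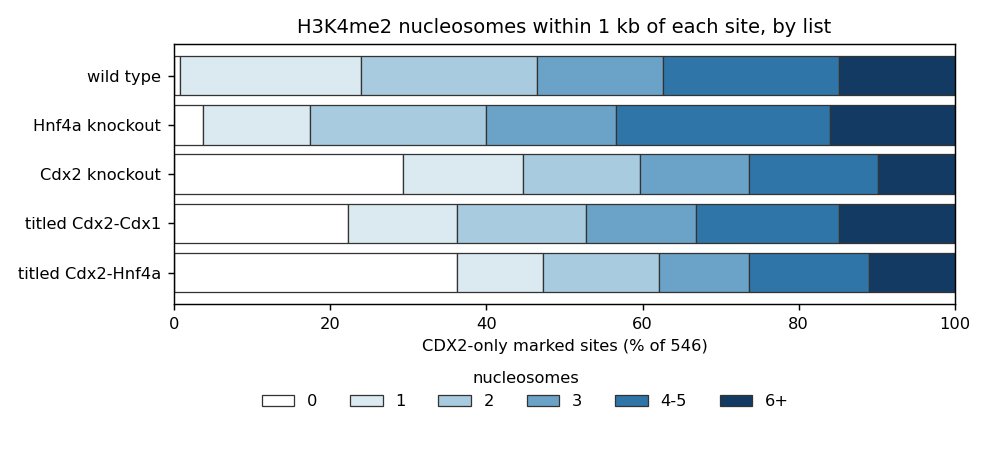
Each bar is 1 of the 5 lists (y axis) and is divided into the percent of the 546 marked CDX2-only sites (x axis) that held 0, 1, 2, 3, 4 to 5 or 6 and more H3K4me2 nucleosomes of score 52 or more within 1 kb. The white class without nucleosomes holds 29.3% in Cdx2 knockout and 3.66% in Hnf4a knockout.

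The direct comparison of both single knockouts uses lists that played no part in choosing the sites. The 546 sites held 1264 nucleosomes in Cdx2 knockout and 1859 in Hnf4a knockout. Scaled by the number of nucleosomes of score 52 or more in each list, the ratio was 0.663 (0.617 to 0.712). Fewer nucleosomes were listed in Cdx2 knockout at 334 sites (46.0% of all marked sites and peaks did so, against 61.2% here). More were listed at 79 sites, or 14.5%, beside 24.5% over all, and 133 sites held equal numbers. Of the 413 sites that differed, 80.9% (76.7 to 84.6) had fewer in Cdx2 knockout. The mark was absent from the Cdx2 knockout list and present in the Hnf4a knockout list at 145 sites, and the reverse held at 5. These pairs were not counted over all marked sites and peaks. There, too, more were empty in Cdx2 knockout (1892) than in Hnf4a knockout (723), so the direction was not particular to these sites.

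The size of this ratio depended on how the lists were treated, and its direction did not in the alternatives computed. With all deposited nucleosomes, including the low-scoring ones of the long Hnf4a knockout list, the ratio was 0.856. Scaled by the nucleosomes at HNF4A peaks without CDX2 it was 0.745. Sites taken from CDX2 library 1 alone (3990 sites) gave 0.784 and those from library 2 alone (1248 sites) gave 0.774. The share of sites empty in Hnf4a knockout ranged from 0.549% with lists as deposited to 14.5% at a score of 100 or more, where 41.9% were empty in Cdx2 knockout.

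Sites without HNF4A were set beside the other marked sets. In Cdx2 knockout, 15.2% of marked shared sites and 9.64% of the 13802 marked HNF4A peaks without any CDX2 peak held no nucleosome. The marked CDX2-only sites exceeded these by 14.1 percentage points (9.44 to 18.8) and 19.7 points (16.0 to 23.6). In Hnf4a knockout the differences were 2.13 points (0.333 to 4.18) and -0.988 points (-2.32 to 0.968). The ratio of Cdx2 knockout to Hnf4a knockout was 0.726 (0.686 to 0.768) at shared sites and 0.892 (0.881 to 0.903) at HNF4A peaks without CDX2. That of the CDX2-only sites was 0.743 times the latter (0.691 to 0.799). Against shared sites it was 0.913 times as large, with an interval of 0.834 to 1.0002 that includes 1. Among sites that differed, 80.2% of shared sites had fewer nucleosomes in Cdx2 knockout, close to the 80.9% of CDX2-only sites, whereas 61.9% of HNF4A peaks without CDX2 did. CDX2-only and shared sites thus differed in how often all nucleosomes were missing, and a difference in the ratio was not shown.

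Part of the gap in empty sites went with the lower number of wild-type nucleosomes at CDX2-only sites, a median of 3 against 4 at shared sites. Among sites with 1 wild-type nucleosome, 68.8% of marked CDX2-only sites (59.9 to 76.8) were empty in Cdx2 knockout, against 55.9% of shared sites (43.3 to 67.9) and 36.4% of HNF4A peaks without CDX2 (34.4 to 38.6). With 2 wild-type nucleosomes the shares were 34.7%, 29.5% and 15.7%, and with 3 they were 15.1%, 15.7% and 6.60%. With 6 or more they were 7.06% (2.63 to 14.7), 0% of 170 sites (0 to 2.15) and 0.443%. Reweighted to the wild-type counts of the marked CDX2-only sites, the share was 23.5% at shared sites and 13.4% at HNF4A peaks without CDX2, beside 29.3%. In Hnf4a knockout, 12.0% of CDX2-only sites with 1 wild-type nucleosome were empty, and 22.4% of HNF4A peaks without CDX2 were. The CDX2-only sites therefore stood above HNF4A peaks without CDX2 in Cdx2 knockout at each wild-type count, and below them in Hnf4a knockout at a count of 1. The sets were matched by number of nucleosomes and not by their score. Over all counts, the mean wild-type score was 374 at CDX2-only sites, 414 at shared sites and 491 at HNF4A peaks without CDX2.

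**Figure D3:**
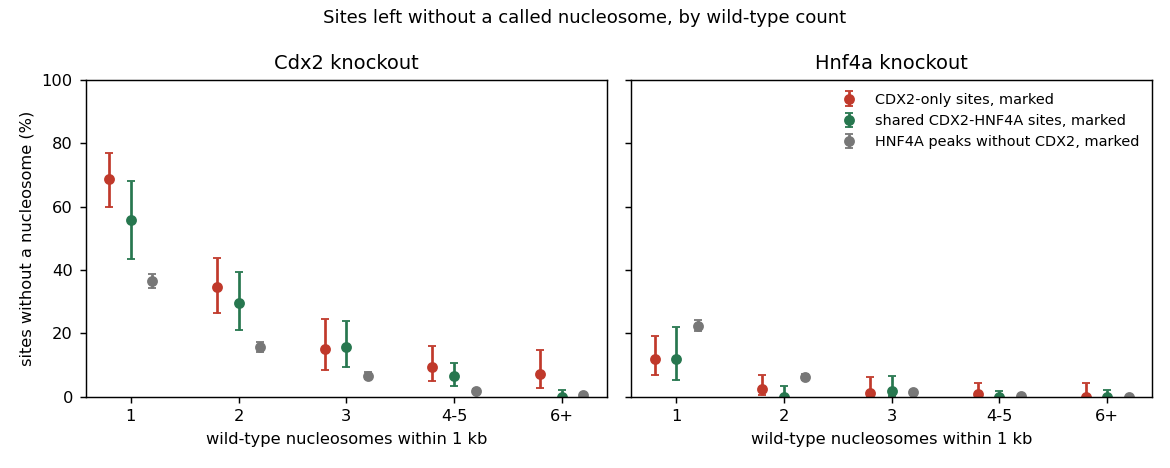
Percent of sites without an H3K4me2 nucleosome within 1 kb (y axis, bars are exact 95% intervals) by number of wild-type nucleosomes (x axis), for marked CDX2-only sites, shared sites and HNF4A peaks without CDX2 in the single knockouts (left, Cdx2; right, Hnf4a). At 1 wild-type nucleosome in Cdx2 knockout the values are 68.8%, 55.9% and 36.4%.

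The nucleosome ratio itself followed the wild-type count. At marked CDX2-only sites with 1 wild-type nucleosome, Cdx2 knockout held 0.432 nucleosomes per site and Hnf4a knockout 1.54, a scaled ratio of 0.274 (0.199 to 0.372). The ratio was 0.501 at sites with 2, 0.643 with 3, 0.710 with 4 or 5 and 0.849 (0.750 to 0.962) with 6 or more. Shared sites gave 0.325, 0.473, 0.626, 0.690 and 0.893 in the same classes, and HNF4A peaks without CDX2 gave 0.733, 0.776, 0.796, 0.888 and 0.958. At matched counts the CDX2-only and shared sites had overlapping intervals in every class. The wild-type count chose the sites and their classes, so the trend across classes is a description.

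The deficit in Cdx2 knockout was not limited to the CDX2 site itself and was smaller beyond 1 kb. For marked CDX2-only sites the ratio of Cdx2 knockout to Hnf4a knockout was 0.710 (0.634 to 0.795) in the first 250 bp on either side of the centre, 0.588 (0.510 to 0.677) at 250 to 500 bp and 0.671 (0.591 to 0.761) at 500 to 1000 bp. It was 0.793 (0.706 to 0.889) at 1 to 2 kb, 0.851 (0.790 to 0.916) at 2 to 5 kb and 0.900 (0.846 to 0.958) at 5 to 10 kb. At shared sites the corresponding values were 0.858, 0.711, 0.626, 0.681, 0.782 and 0.851. Within 250 bp of the centre, CDX2-only sites were lower than shared sites, with intervals of 0.634 to 0.795 and 0.779 to 0.944 that overlap slightly. From 500 bp outward the order of both sets was the opposite, again with overlapping intervals. HNF4A peaks without CDX2 ranged between 0.851 and 0.951 over these distances. The window beyond 1 kb was not used in choosing the sites, and there the CDX2-only sites were still below HNF4A peaks without CDX2 at 1 to 2 kb (0.916, interval 0.901 to 0.932).

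**Figure D4:**
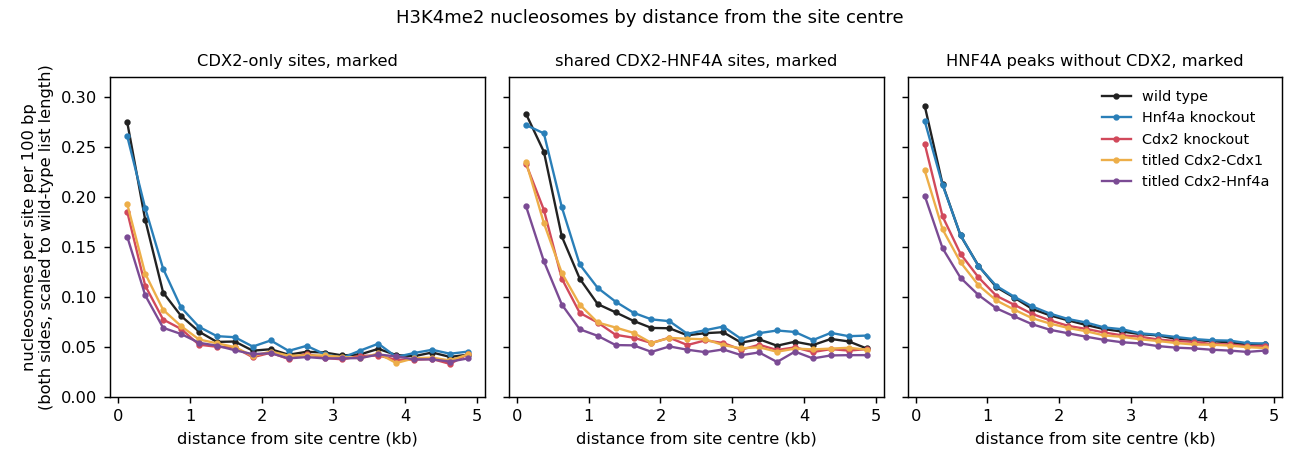
Scaled number of H3K4me2 nucleosomes per site and 100 bp (y axis) against distance from the site centre (x axis, both sides combined in 250 bp steps) for 3 sets of sites, with 1 line per list scaled to the length of the wild-type list. At marked CDX2-only sites the first step holds 0.275 in wild type, 0.261 in Hnf4a knockout and 0.185 in Cdx2 knockout.

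At marked CDX2-only sites, the place of the nucleosomes within the 1 kb window set the Hnf4a knockout list apart when it was measured from the stretch common to both CDX2 libraries. Of nucleosomes within 1 kb, 26.5% (24.1 to 29.0) were within 150 bp of the site centre in Cdx2 knockout, 22.7% (20.8 to 24.7) in Hnf4a knockout and 25.6% in wild type. In the libraries titled Cdx2-Cdx1 and Cdx2-Hnf4a it was 26.3% and 26.1%. Measured from the centre of the stretch common to the CDX2 peaks of both libraries, the shares were 26.0% (23.6 to 28.5) in Cdx2 knockout, 17.8% (16.1 to 19.6) in Hnf4a knockout and 22.9% in wild type. The libraries titled Cdx2-Cdx1 and Cdx2-Hnf4a gave 25.6% and 25.7% by this measure. The 3 lists without Cdx2 were thus alike in the share of central nucleosomes, and Hnf4a knockout was lower. Its interval overlapped theirs with the site centre and lay apart from them with the common stretch. At shared sites the common-stretch shares were 21.1% in Cdx2 knockout, 13.4% (12.1 to 14.7) in Hnf4a knockout and 15.6% (14.2 to 17.0) in wild type. The libraries titled Cdx2-Cdx1 and Cdx2-Hnf4a gave 22.6% and 25.1% at shared sites. Hnf4a knockout thus overlapped wild type there, and both were below the 3 lists without Cdx2.

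The sites were next followed across the 3 lists that lack Cdx2. No nucleosome was found in any of the 3 at 110 marked CDX2-only sites, or 20.1% (16.9 to 23.8), beside 6.32% over all marked sites and peaks. At shared sites it was 7.81% (5.87 to 10.1), and at HNF4A peaks without CDX2 5.67% (5.29 to 6.06). These shares were not matched for wild-type nucleosomes, with which empty sites varied in Cdx2 knockout. The mean wild-type number was 3.19 at CDX2-only sites, 4.04 at shared sites and 3.99 at HNF4A peaks without CDX2. Of the 110 sites, 97 had a nucleosome in Hnf4a knockout. At the other extreme, 334 of the 546 sites had a nucleosome in all 3 lists. Of the 160 sites empty in Cdx2 knockout, 111 were also empty in the library titled Cdx2-Cdx1 and 148 in that titled Cdx2-Hnf4a. Another 41 sites were empty in the latter alone. The empty sites of Cdx2 knockout therefore recurred for the most part in the other libraries without Cdx2. Over all marked sites and peaks, 1892 were empty in Cdx2 knockout and 1123 in all 3 lists. Such recurrence was thus not particular to the marked CDX2-only sites. No background was computed for the counts of 97, 334, 111, 148 and 41 sites.

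The double knockouts were compared with the single Cdx2 knockout at these sites. The library titled Cdx2-Cdx1 held 1487 nucleosomes, a scaled ratio of 1.07 to Cdx2 knockout (0.993 to 1.16). That interval includes 1, as did those with lists as deposited (1.07, 0.995 to 1.15) and within 500 bp (1.07, 0.975 to 1.17). Other intervals did not: the ratio was 1.18 (1.09 to 1.27) without scaling and 1.16 (1.07 to 1.25) scaled by HNF4A peaks without CDX2. It was 1.15 (1.05 to 1.25) at a score of 100 or more and with the 200000 highest-scoring nucleosomes. Within 2 kb it was 1.07 (1.002 to 1.14). The list of this library was longer than that of Cdx2 knockout (281957 against 256794 nucleosomes of score 52 or more), which unscaled values leave uncorrected. Counted without scaling, 298 sites differed from Cdx2 knockout. Of these, 80 (26.8%) had fewer nucleosomes in the library titled Cdx2-Cdx1, beside 46.2% over all marked sites and peaks. Shared sites gave 35.9% and HNF4A peaks lacking CDX2 gave 48.5%. For this library the scaled ratio to Cdx2 knockout was 1.00 among shared sites and 0.920 among HNF4A peaks lacking CDX2. The CDX2-only ratio was 1.07 times the former (0.970 to 1.17) and 1.17 times the latter (1.08 to 1.26). In the library titled Cdx2-Hnf4a the 546 sites held 1209 nucleosomes, a scaled ratio of 0.890 to Cdx2 knockout (0.822 to 0.964). The direction for this library rested on the scaling: it was 1.08 (0.997 to 1.17) when scaled by HNF4A peaks without CDX2 and 1.00 by summed scores. At HNF4A peaks without CDX2 the same ratio was 0.820 (0.809 to 0.830) and at shared sites 0.782 (0.734 to 0.834), so that of the CDX2-only sites was 1.14 times that of shared sites (1.03 to 1.26). At matched wild-type counts, the library titled Cdx2-Hnf4a left 36.2% of shared sites empty, beside 36.3% of marked CDX2-only sites. Before matching, the difference was 9.46 percentage points (4.19 to 14.7). Relative to Hnf4a knockout, the 546 sites held 0.710 times the nucleosomes in the library titled Cdx2-Cdx1 (0.663 to 0.761) and 0.590 times in that titled Cdx2-Hnf4a (0.548 to 0.635).

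No order of the H3K4me2 values by wild-type CDX2 peak score was resolved. Across quartiles of the wild-type CDX2 score, the share of marked CDX2-only sites empty in Cdx2 knockout was 27.0%, 29.4%, 31.6% and 29.2%, and the ratio of Cdx2 knockout to Hnf4a knockout was 0.686, 0.671, 0.683 and 0.616. The interval of the highest quartile, 0.534 to 0.710, overlapped that of the lowest, 0.592 to 0.795. Sites where CDX2 was called again in Hnf4a knockout had a ratio of 0.646 (0.577 to 0.723), and those where it was not had 0.675 (0.614 to 0.741). The wild-type CDX2 score was thus graded with CDX2 calls in Hnf4a knockout, while no gradation with the H3K4me2 ratio was resolved.

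The distance to the nearest wild-type HNF4A peak, in classes set after the values were seen, separated the nearest sites from the farthest. The classes between them were not in order of distance. A site within 1 kb of an HNF4A peak can count the nucleosomes at that peak in its own window. With HNF4A within 1 kb, 6 of 64 sites, or 9.38% (3.52 to 19.3), held no nucleosome in Cdx2 knockout. The share was 28.7% of 122 sites at 1 to 5 kb, 24.2% of 153 at 5 to 20 kb and 39.6% (32.9 to 46.6) of 207 sites beyond 20 kb. The farthest class exceeded the nearest by 30.2 percentage points (18.7 to 38.7). In Hnf4a knockout the shares were 1.56%, 3.28%, 3.27% and 4.83%, and the difference was 3.27 points (-3.85 to 7.31), an interval that includes 0. The same contrast was 21.5 points (10.3 to 29.8) in the library titled Cdx2-Cdx1 and 31.8 points (19.4 to 41.2) in that titled Cdx2-Hnf4a.

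Wild-type H3K4me2 also differed between these distance classes, with a mean of 4.56 nucleosomes within 1 kb of HNF4A and 2.93 beyond 20 kb. Among sites with 1 to 3 wild-type nucleosomes, 18.2% of 22 near sites (5.19 to 40.3) and 52.5% of 141 far sites (43.9 to 60.9) were empty in Cdx2 knockout. With 4 or more, the shares were 4.76% of 42 (0.582 to 16.2) and 12.1% of 66 (5.38 to 22.5). The intervals of the poorer class did not overlap, and those of the richer class did. The poorer class was not matched in count, with means of 2.18 and 1.84 wild-type nucleosomes at near and far sites. At single counts, a split added after the values were seen, 3 of 5 near sites and 75.5% of 53 far sites with 1 nucleosome were empty, 1 of 8 and 50.9% of 57 with 2, and 0 of 9 and 16.1% of 31 with 3. The intervals overlapped at each single count. Far sites reweighted to the counts of the near ones were empty at 42.3%, beside the 18.2%. CDX2 calls in Hnf4a knockout showed no such contrast, with 39.1%, 41.0%, 40.5% and 36.7% from the nearest class to the farthest.

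**Figure D5:**
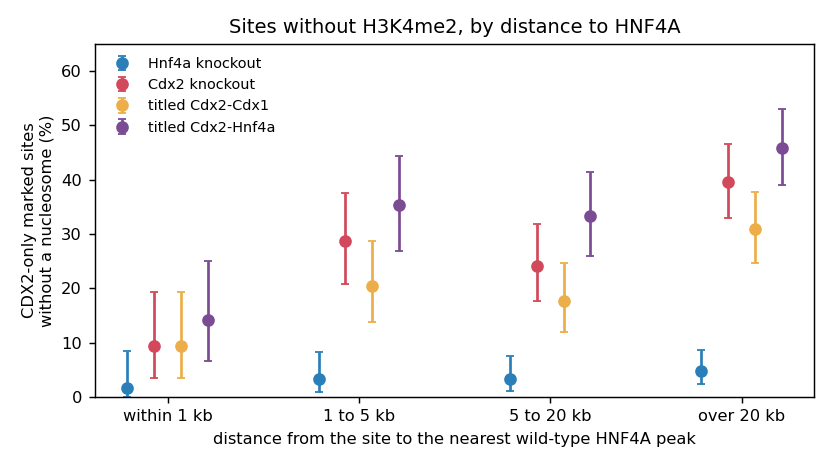
Percent of marked CDX2-only sites without an H3K4me2 nucleosome within 1 kb (y axis, bars are exact 95% intervals) by distance to the nearest wild-type HNF4A peak (x axis), in each knockout list. In Cdx2 knockout the share is 9.38% within 1 kb of an HNF4A peak and 39.6% beyond 20 kb, while in Hnf4a knockout it stays between 1.56% and 4.83%.

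Single sites show the range. At chr1:130224368-130225341, 7 nucleosomes were listed in wild type, 7 in Hnf4a knockout and 0 in Cdx2 knockout and in both double knockouts. At chr7:141881328-141882254 the numbers were 3 in wild type, 6 in Hnf4a knockout and 0 in the 3 lists without Cdx2. At chr9:121456252-121457194, the site with the second-highest wild-type CDX2 score, there were 4 in wild type, 6 in Hnf4a knockout, 3 in the library titled Cdx2-Cdx1 and 0 in the others. The site chr8:25544863-25545550 held 7 in wild type, 7 in Hnf4a knockout and 0 in Cdx2 knockout, but 6 in the library titled Cdx2-Cdx1 and 2 in that titled Cdx2-Hnf4a. At chr2:124443857-124445244 the numbers were 8 in wild type, 6 in Hnf4a knockout, 0 in Cdx2 knockout, 3 in the library titled Cdx2-Cdx1 and 0 in that titled Cdx2-Hnf4a. A further site, chr2:110436733-110437649, tied with the last in its excess of Hnf4a knockout over Cdx2 knockout and ranked lower only by summed score, and it is named after its values were seen. It held 7 in wild type, 6 in Hnf4a knockout and 0 in the 3 lists without Cdx2. These 6 sites had an excess of 6 or 7 nucleosomes, and 3 of them were marked in at least 1 double-knockout list.

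Differences in the opposite direction were smaller. At chr7:119418017-119418785, 3 nucleosomes were listed in wild type, 4 in Cdx2 knockout and 0 in Hnf4a knockout, with 3 and 2 in the libraries titled Cdx2-Cdx1 and Cdx2-Hnf4a. At chr8:122624095-122625173 the counts were 7, 9 and 6 in wild type, Cdx2 knockout and Hnf4a knockout. At a site on chromosome 18 they were 4, 6 and 3, at chr13:5548073-5548715 they were 7, 7 and 4, and at chr5:143583025-143583985, ranked by summed score among 22 sites with the same difference, they were 8, 9 and 7. Apart from the first, these sites carried between 3 and 9 nucleosomes in each of the 5 lists. The site with the highest CDX2 score, chr12:16758955-16759834, was likewise marked in all lists, with 7 nucleosomes in wild type, 6 in Cdx2 knockout, 9 in Hnf4a knockout, 7 in the library titled Cdx2-Cdx1 and 6 in that titled Cdx2-Hnf4a.

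Relative to wild type, which chose the sites, the scaled ratio at marked CDX2-only sites was 0.694 (0.645 to 0.747) in Cdx2 knockout and 1.05 (0.981 to 1.12) in Hnf4a knockout. At shared sites it was 0.771 and 1.06, and at HNF4A peaks without CDX2 it was 0.874 and 0.980. These values are descriptions, since a site needed a wild-type nucleosome to be counted. The nucleosomes that were listed at the 546 sites did not score lower in Cdx2 knockout: their mean score was 427, beside 374 in wild type and 342 in Hnf4a knockout. Over the whole lists the means were 542, 507 and 433, so the order at the sites was that of the lists. The mean in Cdx2 knockout leaves out nucleosomes no longer listed there, so it cannot show whether those kept had lost score. At the 354 unmarked CDX2-only sites, which had no wild-type nucleosome within 1 kb, 13 nucleosomes were listed in Cdx2 knockout and 80 in Hnf4a knockout, a scaled ratio of 0.158 (0.0808 to 0.286). Their mean scores were 83.7 and 97.0, low beside the whole-list means of 542 and 433. No nucleosome was listed at 343 and 301 of the 354 sites, so this ratio rests on few and low-scoring nucleosomes. The libraries titled Cdx2-Cdx1 and Cdx2-Hnf4a held 46 and 34 there, with ratios to Hnf4a knockout of 0.510 (0.347 to 0.743) and 0.386 (0.250 to 0.583).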

How the data were processed

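Of 11 samples, 10 have a list that was used, 5 with peaks of a factor and 5 with H3K4me2 nucleosomes. Input DNA was not analysed here. Sample titles gave the groups. Each factor list deposited by the authors holds positions and a peak score of at least 50, with MACS in the peak names. The meaning of that score is not stated. The nucleosome score in the deposited H3K4me2 lists is 10 times a −log10 p-value, per the file headers, and stops at 3250. The lowest was 1.7 in Hnf4a knockout and 50.1 to 51.3 in the other 4 lists. At a score of 52 or more the lists held between 245431 and 281957 nucleosomes. Aligner, caller version, controls and reads per library: not given in the sources used here. Depth is therefore unknown. The build was mm9 per the submitters' processing notes, and coordinates count from 1. No genome or annotation of that build was used, so the motifs, genes and sequences of the sites were not analysed here.

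Peaks matched when they overlapped by 1 bp or more. Shares have exact Clopper-Pearson 95% intervals, differences of shares have Newcombe intervals, scaled ratios have exact binomial intervals and ratios of ratios have log-normal intervals. The background for H3K4me2 was all CDX2 sites and HNF4A peaks with a wild-type nucleosome within 1 kb. Procedures were tested on simulated data and run with Python 3.11.15, NumPy 2.4.6, pandas 2.3.3 and SciPy 1.17.1. Named sites are the 5 with the highest wild-type CDX2 score, CDX2 score in Hnf4a knockout and HNF4A score in Cdx2 knockout, the 5 with the largest and smallest H3K4me2 difference (Hnf4a knockout minus Cdx2 knockout) and the 3 nearest on each side of the 1 kb limit. The sites, comparison sets and named-site rule were chosen with earlier results of these data known, and the classes by HNF4A distance and by CDX2 score were added after the values were seen. Alternatives were other definitions of a site, score limits, windows, scalings and site centres.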

Additional observations from a re-analysis of the deposited data

How the results depend on the processing

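Of 124 recomputed values, 89 stayed within the counting interval of the reported value or, for the number of sites, within 1.5 times of it. With sites from a single CDX2 library, the number of marked CDX2-only sites ranged from 1248 to 3990. The share with CDX2 in Hnf4a knockout was then 9.35% to 22.0%, the share empty of H3K4me2 in Cdx2 knockout 22.1% to 24.6% and in Hnf4a knockout 5.04% to 7.85%. The excess over HNF4A peaks without CDX2 was 12.5 to 15.0 points, the ratio of Cdx2 to Hnf4a knockout 0.774 to 0.784 and the share of differing sites with fewer in Cdx2 knockout 69.4% to 71.0%. CDX2 scores of 70 or more in both libraries left 256 sites, with CDX2 in Hnf4a knockout at 55.1%. Wild-type nucleosomes of score 100 or more as the rule gave 21.8% empty in Cdx2 knockout and 0.661% in Hnf4a knockout. Lists as deposited gave 0.549% empty in Hnf4a knockout, a ratio of 0.856 and 94.1% of differing sites with fewer in Cdx2 knockout. The shares empty in Cdx2 and Hnf4a knockout were 41.9% and 14.5% at nucleosome scores of 100 or more, 41.6% and 11.4% with the 200000 highest-scoring nucleosomes, and 33.9% and 6.78% within 500 bp, and within 2 kb that in Cdx2 knockout was 25.5%. Scaling by HNF4A peaks without CDX2 gave 0.745 for Cdx2 to Hnf4a knockout, 0.784 for Cdx2 knockout to wild type and 1.08 for the library titled Cdx2-Hnf4a to Cdx2 knockout, which reversed. The last was 1.00 by summed scores, where the library titled Cdx2-Cdx1 gave 1.18, as it did without scaling. HNF4A peaks within 500 bp raised that share to 4.03%. From the common-stretch centre, the central share in Hnf4a knockout was 17.8%. The causes of these changes were not tested, other than that the deposited Hnf4a knockout list reached lower scores.

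No paired analysis was possible because CDX2 in wild type alone had more than 1 library and no other group shares its numbers beyond the first. The planned motif and gene results were not run, for want of a genome of the build. Each knockout is 1 library, so the spread between animals is unknown, and unknown depth limits what a missing peak or nucleosome shows.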
